A study of Mus musculus with 16 samples.

Results

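The genes described here are 10 regulators of olfactory receptor choice, taken by name from what is known of that process. They are Lhx2, Ldb1, Ebf1, Ebf2, Ebf3, Ebf4, Emx2, Kdm1a, Lbr and Atf5. Each had 1 feature, and together they make up 10 of the 19572 features tested. Their mRNA was measured on 16 Clariom S arrays, a 1-colour array that gives a log2 signal per gene. Sorted cells of mouse olfactory mucosa fell into 4 groups of 4 arrays, with a fraction titled GFP− and a fraction titled GFP+ from odor pools and the same pair from vehicle pools. All mice were C57BL/6 animals of both sexes, 7 to 12 weeks old, that carried S100a5-tauGFP, a reporter that places a fluorescent protein under S100a5, a gene that olfactory sensory neurons (OSNs) transcribe when active. Whether a mouse carried 1 or both copies of the reporter allele was not given in the labels used here. Odor mice smelled a mixture of undecanal and bourgeonal for 10 s every 20 min, starting 26 h into a 40 h stay in clean air chambers at 3.1 L per min, and vehicle mice received filtered air instead. Each array held cells from a pool of 3 mice, and as the 2 fractions of a pool shared their mice there were 8 pools in all.

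Each OSN expresses 1 allele of 1 olfactory receptor gene out of a very large family. In mice, the unchosen receptor genes lie in compacted heterochromatin, while a hub of enhancers bound by LHX2, its adaptor LDB1 and EBF proteins contacts the chosen gene. The histone demethylase KDM1A is needed for a first receptor to be switched on, LBR is a nuclear envelope protein that mature mouse OSNs keep low, and the receptor protein, once made, engages the unfolded protein response, which raises translation of ATF5 and stabilises the choice. EMX2 is a homeobox factor needed for normal expression of many mouse receptor genes.

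Titles and labels disagreed about the fractions. The GFP status under cell type is the reverse of that in the title for all 16 arrays, so the fractions are named by title throughout. S100a5, which drives the reporter, had log2 signals of 17.08, 16.46, 16.56 and 16.51 in odor titled GFP− arrays, against 14.65, 15.75, 15.48 and 15.48 in odor titled GFP+ arrays. In vehicle pools it had 16.44, 16.30, 16.46 and 16.29 in titled GFP− arrays and 15.51, 15.44, 15.33 and 15.22 in titled GFP+ arrays. The fraction titled GFP− thus had the higher S100a5 signal in 8 of 8 pools, which goes against the titles, and every direction below rests on them. Omp, the gene of the olfactory marker protein made by mature OSNs, lay between 18.3 and 18.7 on all 16 arrays, so both fractions held abundant OSN mRNA. Over all 19572 features, limma called 4338 features between the fractions in odor pools (22.2%) and 3302 in vehicle pools (16.9%) at an adjusted p under 0.05. Background was taken as the 95th percentile of the negative controls of an array, which lay between 9.14 and 10.9.

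The mRNA of 1 of the 10 regulators differed between the fractions. Lbr, the lamin B receptor of the inner nuclear membrane, was lower in the fraction titled GFP− in odor pools and in vehicle pools. The other 9 did not pass the test in either comparison, so 1 of 10 regulators was called against 22.2% of all features in odor pools and 16.9% in vehicle pools. Counting lower calls only, Lbr stands beside 9.98% of all features in odor pools and 9.82% in vehicle pools. The median difference over the 10 genes, titled GFP− minus titled GFP+, was -0.02 on the log2 scale in odor pools, against 0.14 over all features. In vehicle pools it was 0.05, against 0.13 over all features.

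**Figure D1:**
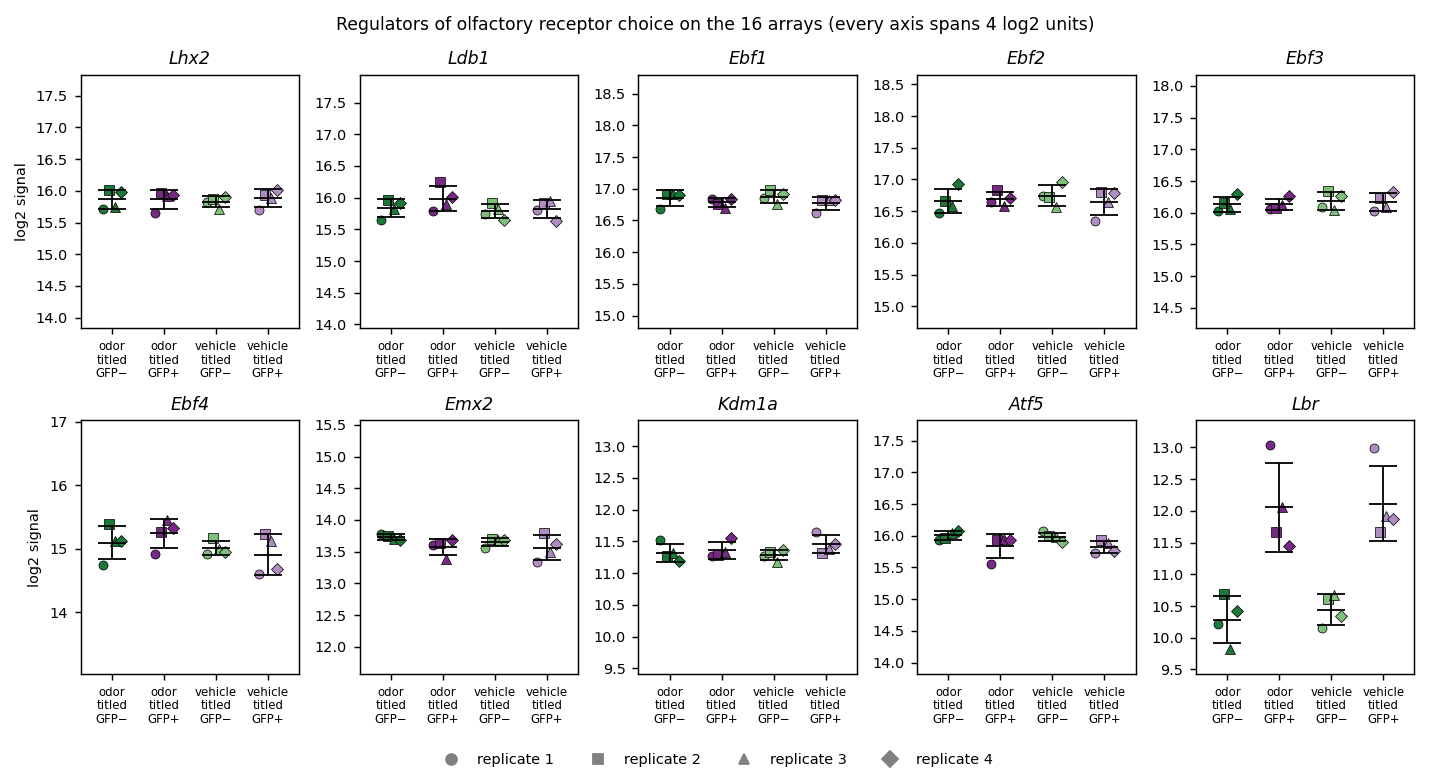
Log2 signal (vertical axis, each spanning 4 log2 units) of the 10 regulators on the 16 arrays, by group along the horizontal axis. Symbols are the 4 replicates, and bars give the mean ± SD of a group. Lbr separates the fractions, at 9.82 to 10.69 in titled GFP− arrays and 11.45 to 13.04 in titled GFP+ arrays, while the groups of the other 9 genes lie close together.

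Lbr links peripheral heterochromatin to the nuclear lamina and also carries a sterol reductase domain. Its log2 signals in odor pools were 10.22, 10.69, 9.82 and 10.42 in titled GFP− arrays and 13.04, 11.67, 12.07 and 11.45 in titled GFP+ arrays. In vehicle pools they were 10.15, 10.61, 10.67 and 10.34 in titled GFP− arrays and 12.99, 11.67, 11.92 and 11.87 in titled GFP+ arrays. All titled GFP− arrays were below all titled GFP+ arrays, and within the fraction titled GFP+ the highest value of each treatment came from the pool numbered 1. Lbr exceeded background on 3 of 4 odor titled GFP− arrays and on every array of the other groups.

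Group means of Lbr were 10.29 ± 0.37 in odor titled GFP− and 12.06 ± 0.70 in odor titled GFP+ arrays (SD, n = 4 each). The difference was -1.77 ± 0.32 (SE), 3.41-fold lower, with a 95% interval from -2.46 to -1.09 and a limma adjusted p of 8.8e-04. In vehicle pools the means were 10.44 ± 0.24 in titled GFP− and 12.11 ± 0.59 in titled GFP+ arrays (SD, n = 4 each). There the difference was -1.67 ± 0.32 (SE), 3.17-fold lower, with an interval from -2.35 to -0.98 and a limma adjusted p of 0.0015. The groups did not overlap in either comparison, which also held for 24.5% of all features in odor pools and 23.4% in vehicle pools. A two-sided exact permutation test gave p = 0.0286 for each, the smallest that 4 arrays against 4 allow. That test shuffled arrays freely and ignored that the fractions of a pool share their mice, so it is not a paired test.

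Within single pools Lbr was lower in the fraction titled GFP− in 8 of 8. The per-pool differences were -2.82, -0.98, -2.25 and -1.04 in odor pools and -2.83, -1.06, -1.24 and -1.52 in vehicle pools. The pools numbered 1 gave the widest gap of each treatment. With both of them left out, an alternative chosen after seeing the data, the difference was -1.42 in odor pools (limma adjusted p = 7.5e-04) and -1.28 in vehicle pools (limma adjusted p = 0.0016).

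**Figure D2:**
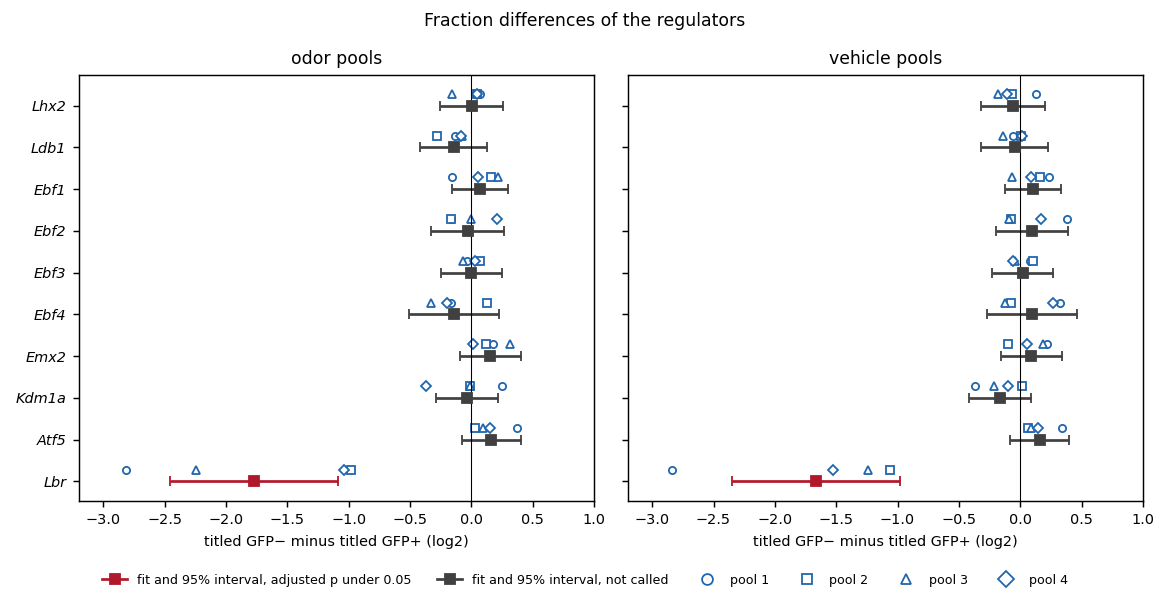
Difference in log2 signal, titled GFP− minus titled GFP+ (horizontal axis), of the 10 regulators in odor and vehicle pools. Squares with bars are the limma fit and its 95% interval, red where the adjusted p was under 0.05, and open symbols are the 4 pools. Lbr lies below 0 in all 8 pools, and the intervals of the other 9 genes hold 0.

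Markers of other cells moved with Lbr between the fractions. All 12 neutrophil markers were called lower in the fraction titled GFP− in both comparisons, and all 12 were below background there on every array. The mean log2 signal of this list ran from 5.36 to 5.92 in odor titled GFP− arrays and from 12.72 to 14.54 in odor titled GFP+ arrays. In vehicle pools it ran from 5.21 to 5.64 in titled GFP− arrays and from 13.05 to 14.85 in titled GFP+ arrays. Lcn2, which encodes the neutrophil granule protein lipocalin 2, was at least 208-fold lower in odor titled GFP− arrays than in odor titled GFP+ arrays, taking background as the floor, and at least 237-fold lower in vehicle pools. All 8 macrophage markers were called lower too, though 5 of them in odor pools and 4 in vehicle pools lay below background in both fractions, with list means of 5.31 to 6.71 in odor titled GFP− arrays and 9.13 to 10.5 in odor titled GFP+ arrays. For vehicle pools these were 5.54 to 6.11 in titled GFP− and 9.42 to 10.6 in titled GFP+ arrays.

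The same direction held for dividing cells. All 9 cycling cell markers, Mki67 among them, were called lower in the fraction titled GFP− in both comparisons. Of these, 7 in odor pools and 4 in vehicle pools lay below background in both fractions, so their differences have no fold. The list mean ran from 4.90 to 5.05 in odor titled GFP− arrays and from 6.96 to 9.22 in odor titled GFP+ arrays. In vehicle pools it ran from 4.73 to 4.99 in titled GFP− arrays and from 7.25 to 9.41 in titled GFP+ arrays. Of 10 immature OSN markers, 5 were called lower in each comparison, with list means of 10.9 to 11.3 in odor titled GFP− and 12.5 to 12.7 in odor titled GFP+ arrays. Of 8 basal and progenitor markers, 4 were called lower in each comparison, as were 4 of 9 B cell markers. All 8 basal and all 9 B cell markers lay below background in both fractions in odor pools, and 7 and 8 in vehicle pools. Of 8 sustentacular markers 5 were lower in odor and 4 in vehicle pools, with 4 and 1 below background in both fractions. By contrast, 3 of 12 mature OSN markers and 5 of 5 activity-dependent genes were called higher in each comparison. Of 7 mesenchymal markers, all below background in both fractions, 1 was higher in odor and 0 in vehicle pools. Over all features 9.98% were lower and 12.2% higher in odor pools, and 9.82% lower and 7.05% higher in vehicle pools. Fewer cells of a type cannot be told apart from less RNA per cell in these bulk samples.

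Some of these lists can be set beside Lbr array by array within the fraction titled GFP+. In odor pools, where Lbr read 13.04, 11.67, 12.07 and 11.45, the neutrophil mean read 14.54, 13.39, 14.25 and 12.72 and the cycling mean 9.22, 7.56, 7.84 and 6.96. In vehicle pools, where Lbr read 12.99, 11.67, 11.92 and 11.87, the neutrophil mean read 14.85, 13.27, 13.86 and 13.05 and the cycling mean 9.41, 7.25, 8.09 and 7.37. Replicate 1 was the highest titled GFP+ array of each treatment for Lbr and for both lists. It was also the highest for the macrophage mean, at 10.46 in odor and 10.56 in vehicle pools. The same held for the B cell mean, of markers mostly below background, at 6.37 in odor and 6.40 in vehicle pools. It held as well for the list of heterochromatin and nuclear envelope genes described below, at 10.80 in odor and 10.66 in vehicle pools. Some other lists had another order. The immature OSN mean read 12.50, 12.74, 12.48 and 12.70 in odor pools and 12.68, 12.48, 12.82 and 12.91 in vehicle pools. The sustentacular mean was highest in replicate 4, at 10.06 in odor and 10.40 in vehicle pools. LBR is known from mouse and human neutrophils, where it is needed for the lobed nucleus. The part of these cells in the Lbr difference was not tested.

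**Figure D3:**
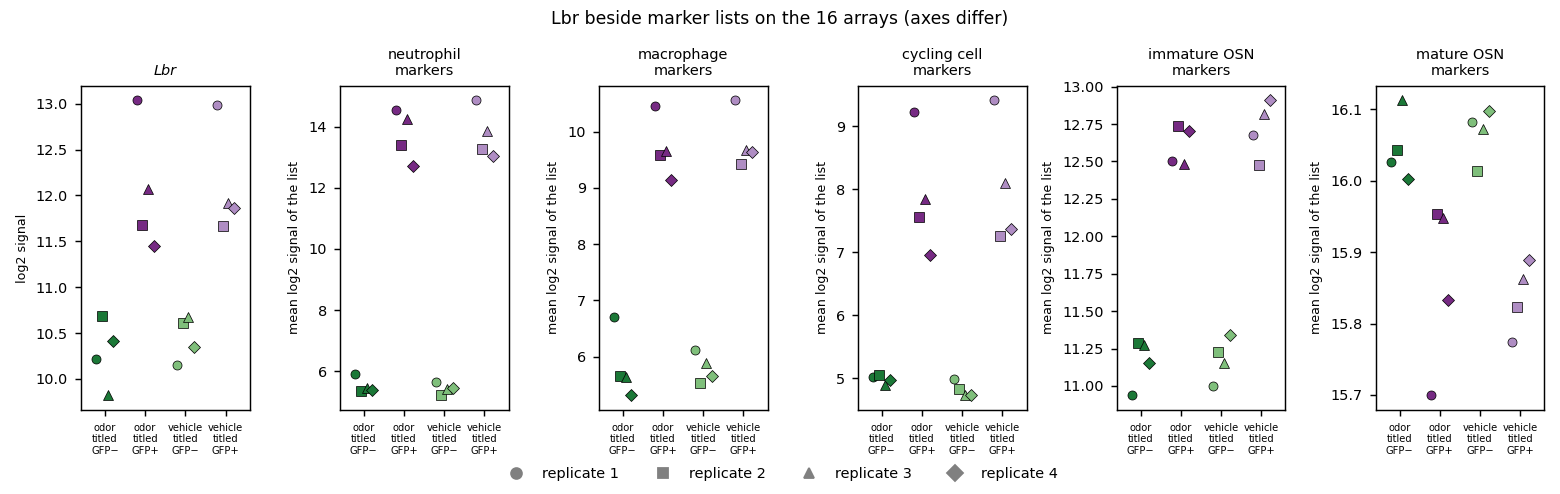
Log2 signal of Lbr and mean log2 signal of 5 marker lists (vertical axes, which differ in range) on the 16 arrays by group. Symbols are the 4 replicates. Lbr and the neutrophil, macrophage, cycling and immature OSN lists are lower in every titled GFP− array than in any titled GFP+ array, and the mature OSN list is slightly higher there.

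The enhancer-binding regulators showed no call. Lhx2, a LIM homeodomain factor needed for OSN development and receptor transcription in mice, had 15.72, 16.01, 15.75 and 15.98 in odor titled GFP− arrays and 15.65, 15.96, 15.91 and 15.94 in odor titled GFP+ arrays. Its vehicle arrays had 15.83, 15.87, 15.71 and 15.91 in titled GFP− arrays and 15.70, 15.94, 15.89 and 16.02 in titled GFP+ arrays. The groups overlapped, and the differences were 0.00 (95% interval -0.26 to 0.26) in odor pools and -0.06 (-0.32 to 0.20) in vehicle pools. Ldb1, the adaptor that joins LIM proteins across distant sites, had 15.65, 15.96, 15.82 and 15.92 in odor titled GFP− arrays against 15.78, 16.25, 15.89 and 16.004 in odor titled GFP+ arrays. Its vehicle arrays read 15.74, 15.92, 15.82 and 15.66 in the fraction titled GFP− and 15.80, 15.92, 15.95 and 15.64 in the fraction titled GFP+. Ldb1 was lower in the fraction titled GFP− in 6 of 8 pools, by a difference of -0.14 (-0.42 to 0.13) in odor pools and -0.04 (-0.32 to 0.23) in vehicle pools, which did not pass the test.

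The 4 EBF genes, which encode helix-loop-helix factors first described at OSN promoters, likewise showed no call. Ebf1 had 16.68, 16.92, 16.92 and 16.90 in odor titled GFP− arrays, against 16.83, 16.76, 16.70 and 16.84 in odor titled GFP+ arrays. In vehicle pools Ebf1 had 16.85, 16.99, 16.75 and 16.91 in titled GFP− arrays and 16.61, 16.82, 16.82 and 16.82 in titled GFP+ arrays. Its groups overlapped, with differences of 0.07 (-0.16 to 0.30) in odor pools and 0.10 (-0.13 to 0.33) in vehicle pools. Ebf1 is also a B cell factor, and of the 9 B cell markers only Cd79a, a part of the B cell receptor, exceeded background, on 1 vehicle titled GFP+ array. Against the background probe sets, Cd79a was above on 2 titled GFP+ arrays of each treatment and Cd79b, its partner, on 1 vehicle titled GFP+ array, with 0 titled GFP− arrays for either. Ebf2 ran from 16.47 to 16.92 in odor titled GFP− arrays and from 16.58 to 16.83 in odor titled GFP+ arrays, and from 16.56 to 16.96 in vehicle titled GFP− arrays and from 16.35 to 16.81 in vehicle titled GFP+ arrays. Its differences were -0.03 (-0.33 to 0.26) in odor pools and 0.10 (-0.20 to 0.39) in vehicle pools.

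Ebf3 was the steadiest of the 10 genes, with a range of 0.32 over the 16 arrays. It ran from 16.02 to 16.29 in odor titled GFP− and from 16.06 to 16.26 in odor titled GFP+ arrays, and its differences were 0.00 (-0.25 to 0.25) in odor pools and 0.02 (-0.23 to 0.27) in vehicle pools. Ebf4 varied most among the 9 uncalled genes, with a range of 0.86. Its signals were 14.75, 15.38, 15.13 and 15.13 in odor titled GFP− arrays and 14.92, 15.26, 15.45 and 15.33 in odor titled GFP+ arrays. In vehicle pools they were 14.92, 15.16, 15.00 and 14.94 in titled GFP− arrays and 14.60, 15.24, 15.12 and 14.67 in titled GFP+ arrays. Ebf4 differed by -0.14 (-0.51 to 0.23) in odor pools and by 0.10 (-0.27 to 0.47) in vehicle pools, so the 2 treatments gave opposite signs and neither passed.

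Atf5 and Emx2 differed in the other direction from Lbr, as most features did, and did not pass the test. Atf5, a basic leucine zipper factor, had 15.93, 15.97, 16.04 and 16.08 in odor titled GFP− arrays, against 15.56, 15.94, 15.95 and 15.93 in odor titled GFP+ arrays. The vehicle pools gave 16.07, 15.99, 15.97 and 15.91 in titled GFP− arrays and 15.73, 15.93, 15.88 and 15.76 in titled GFP+ arrays. In 8 of 8 pools Atf5 read higher in the fraction titled GFP−, by 0.03 to 0.37, as did Omp, by 0.02 to 0.21. The groups of Atf5 overlapped. The limma difference was 0.16 ± 0.11 (SE) in each treatment, with adjusted p = 0.327 in odor pools and 0.368 in vehicle pools. The median over all features was 0.14 in odor and 0.13 in vehicle pools. Of 19572 features, 12919 were above 0 in odor and 13010 in vehicle pools. With arrays centred on the median of the receptor features, Atf5 turned to -0.30 in odor and -0.12 in vehicle pools. ATF5 is regulated at translation, which mRNA signals do not measure.

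Emx2 had 13.78, 13.75, 13.70 and 13.69 in odor titled GFP− arrays, against 13.60, 13.63, 13.39 and 13.68 in odor titled GFP+ arrays. The vehicle values were 13.56, 13.70, 13.68 and 13.68 in titled GFP− arrays, against 13.34, 13.80, 13.49 and 13.63 in titled GFP+ arrays. In 7 of 8 pools Emx2 was the higher in the fraction titled GFP−. Its odor groups did not overlap, with nearest arrays at 13.69 and 13.68, which also held for 24.5% of all features. The exact permutation test, which ignored the pairing by pool, gave p = 0.0286 there, the same as for Lbr. The difference in odor pools was 0.15 ± 0.12 (SE), with a limma adjusted p of 0.371. The vehicle groups of Emx2 overlapped, with a difference of 0.09 ± 0.12 (SE).

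Kdm1a, whose product removes methyl groups from histone H3, had 11.52, 11.27, 11.32 and 11.19 in odor titled GFP− arrays, against 11.27, 11.28, 11.33 and 11.56 in odor titled GFP+ arrays. Vehicle arrays had 11.28, 11.34, 11.17 and 11.36 in the fraction titled GFP− and 11.65, 11.32, 11.39 and 11.46 in the fraction titled GFP+. Its differences were -0.04 (-0.29 to 0.22) in odor pools and -0.17 (-0.42 to 0.09) in vehicle pools, neither called. Over the 9 uncalled genes, the 95% intervals reached from -0.51 to 0.41 in odor pools and from -0.42 to 0.47 in vehicle pools. As ratios of titled GFP− over titled GFP+ these bounds are 0.702 to 1.32 in odor pools and 0.747 to 1.38 in vehicle pools.

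Whether the odor mixture altered the regulators was asked within each fraction. Limma called 0% of the 19572 features between odor and vehicle in the fraction titled GFP−, and 0% in the fraction titled GFP+. At an unadjusted p under 0.05 there were 805 features in the fraction titled GFP− and 2016 in the fraction titled GFP+, and 0 of the 10 regulators in either. Lbr differed by -0.16 between odor and vehicle in titled GFP− arrays and by -0.05 in titled GFP+ arrays. For the other 9 genes the intervals of odor minus vehicle reached from -0.38 to 0.46 in the fraction titled GFP− and from -0.35 to 0.70 in the fraction titled GFP+. The upper ends belonged to Ebf4, whose difference in the fraction titled GFP+ was 0.33 with a limma adjusted p of 0.527.

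The fraction difference itself was also compared between treatments. The limma interaction term called 0% of all features, with 739 at an unadjusted p under 0.05 and 0 regulators among them. For Lbr the odor difference minus the vehicle difference was -0.10, with a 95% interval from -1.07 to 0.86. Changes within that interval were thus not excluded with 4 pools per treatment. Among the other 9 the intervals reached from -0.76 in Ebf4 to 0.49 in Kdm1a.

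Which genes read as different depended on the scale between arrays. As deposited, the all-feature median of the fraction difference was 0.14 in odor pools and 0.13 in vehicle pools. Centring each array on its own median over tested features moved these to 0.44 and 0.54, and called 4 regulators in odor pools (Ebf1, Emx2 and Atf5 higher, Lbr lower). In vehicle pools that centring called 9 regulators, all but Kdm1a, with Lbr lower and 8 higher. It also called 57.2% of all features in odor pools and 71.5% in vehicle pools, so most genes passed under it. Centring on the median of the olfactory receptor features, or on that of the mature OSN markers, gave negative differences in the 9 other genes in both treatments, with none called. Quantile normalization called Lbr only, in both treatments. Lbr was called lower under each of the 5 scalings, by -1.47 to -2.23 in odor pools and -1.26 to -1.94 in vehicle pools.

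**Figure D4:**
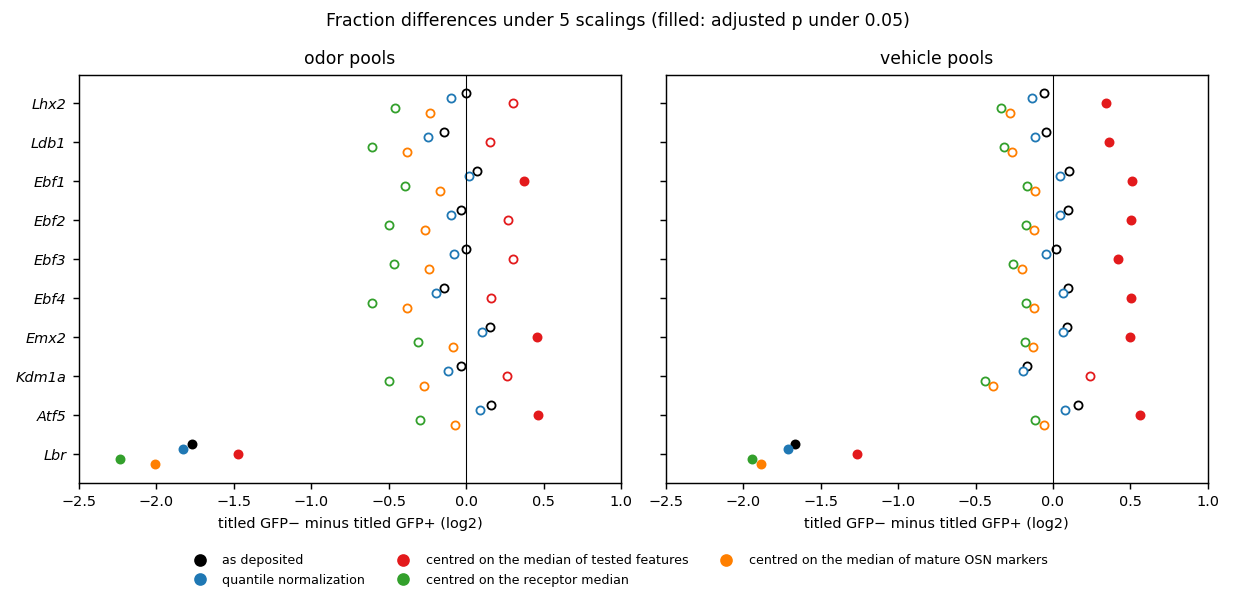
Difference in log2 signal, titled GFP− minus titled GFP+ (horizontal axis), of the 10 regulators under 5 scalings of the arrays, in odor and vehicle pools. Filled points had a limma adjusted p under 0.05. Lbr stays below 0 throughout, and the other 9 genes shift together to either side of 0.

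The promoters of the regulators were read from RefSeq on GRCm38.p6, as windows from 250 bases before to 50 bases after a transcript start. There were 14 such windows for 9 of the 10 genes. A pair of short cores was searched, the EBF core CCCNNGGG and the LIM homeodomain core TAATTA, each its own reverse complement and so the same on both strands, and neither overlaps the other here. The EBF core was in a window of 3 of 9 regulators (Lhx2, Ldb1 and Ebf3), against 15.4% of 27025 genes with windows of that length. The regulators' windows were richer in G and C, at a median of 67.7% against 52.7% over all windows, and the fixed letters of the EBF core are all G or C. TAATTA was in 1 of 9 (Emx2), against 6.12% of those genes. The stretches with these cores, in capitals, are shown as the matches among the regulators, and each is a description of letters only. For Lhx2 only the first of 2 overlapping matches is in capitals, and the other ends 1 base later. Positions count bases from the transcript start, which is 0. The Ldb1 core begins at -47 (chr19:46039653-46039676, minus strand), the Ebf3 core at -21 (chr7:137314451-137314474, minus strand), the Lhx2 core in its second window at 1, with an overlapping match at 2 (chr2:38351301-38351324, plus strand) and the Emx2 core at 36 (chr19:59458718-59458739, plus strand).
Ldb1: tccgcccgCCCTGGGGcctccttc
Ebf3: gcgccgctCCCGGGGGcttcgagt
Lhx2: ggaacacaCCCCGGGGggaagaga
Emx2: ccccgcacTAATTAggctcatg

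The promoter of Lbr, the 1 regulator that was called, held neither core in its window. The 100 bases before its start (chr1:181842402-181842501, minus strand) are shown in lower case as no base matched, and draw no statement about any factor.
Lbr: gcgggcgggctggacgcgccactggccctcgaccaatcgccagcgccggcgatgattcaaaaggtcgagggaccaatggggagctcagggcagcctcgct

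Partners of these regulators were examined as 5 lists, beside the 12.2% of all features called higher and the 9.98% called lower in odor pools. In vehicle pools those shares were 7.05% higher and 9.82% lower. Of 9 LIM adaptor partners, 1 was called higher and 1 lower in odor pools, and 0 higher and 1 lower in vehicle pools. The list median was 0.04 in odor pools, against 0.14 over all features, and 0.10 in vehicle pools, against 0.13. The higher gene was Ssbp2, a single-stranded DNA-binding protein that stabilises LDB1, at 14.34 in odor titled GFP− and 13.92 in odor titled GFP+ arrays, a difference of 0.41 ± 0.12 (SE, limma adjusted p = 0.0195). That call was lost without odor replicate 2, 3 or 4 (limma adjusted p = 0.0628, 0.0571 and 0.0998) and turned to -0.049 with receptor centring. The lower gene was Lmo1, which lay below background in all 4 groups. With the replicate block 2 of the 9 were higher in odor pools.

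Kdm1a works in the CoREST complex, and 4 of its 11 measured partners were called lower in odor pools and 4 in vehicle pools, with 0 higher. In each comparison 2 of the 4, Rcor2, a scaffold paralog, and Insm1, a zinc-finger factor of neuronal progenitors, lay below background in all 4 groups. The list median was -0.15 in odor pools and -0.18 in vehicle pools. Hdac2, a histone deacetylase of the complex, averaged 13.07 in odor titled GFP− and 13.64 in odor titled GFP+ arrays, a difference of -0.57 ± 0.13 (SE, limma adjusted p = 0.0045), and -0.39 ± 0.13 in vehicle pools (limma adjusted p = 0.0436). Rcor1, which encodes the CoREST scaffold, differed by -0.52 ± 0.14 (limma adjusted p = 0.0138) in odor pools and -0.48 ± 0.14 (limma adjusted p = 0.0254) in vehicle pools.

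The CoREST calls depended on the pools and on the scale. Leaving out 1 pool left 3 or 4 lower calls in odor pools, and in vehicle pools 1 without vehicle replicate 3, 1 without vehicle replicate 4 and 2 without vehicle replicate 1. Without both pools numbered 1 there were 3 in odor and 2 in vehicle pools. Centring on the tested-feature median gave 2 higher and 2 lower in odor pools and 5 higher and 1 lower in vehicle pools, and receptor centring gave 2 lower in vehicle pools. The Hdac2 call in vehicle pools was lost when any 1 vehicle pool was left out (limma adjusted p from 0.079 to 0.165). The Rcor1 call was lost without odor replicate 1, 2 or 3 in odor pools and without vehicle replicate 1, 3 or 4 in vehicle pools, and the Insm1 call in vehicle pools without vehicle replicate 3 or 4 (limma adjusted p = 0.0795 and 0.0728). The part of the cycling and immature markers that moved with these genes was not tested.

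Genes of heterochromatin and the nuclear envelope, the setting in which Lbr acts, gave 2 lower calls among 16 in odor pools and 1 in vehicle pools. These lower calls were near the shares over all features, 9.98% and 9.82%. There were 0 higher calls, against 12.2% and 7.05% over all features. With the replicate block there were 4 lower and 1 higher in odor pools and 1 lower and 1 higher in vehicle pools. Tested-feature centring gave 5 higher and 1 lower in odor pools and 7 higher and 1 lower in vehicle pools. Centring on OSN markers gave 6 lower in odor and 2 lower in vehicle pools, and the dim filter left 0 calls among 9 genes. The list median was -0.12 in odor pools and -0.06 in vehicle pools. Smchd1, a chromatin protein known from X inactivation, averaged 8.73 in odor titled GFP− and 10.02 in odor titled GFP+ arrays, below the negative-control background on all of them but above every background probe set. In vehicle pools it averaged 9.04 in titled GFP− and 9.99 in titled GFP+ arrays and was at least 1.31-fold lower in the fraction titled GFP− (limma adjusted p = 0.0013), with 3 of 4 titled GFP+ arrays above background. Lmnb1, a lamin called in odor pools, was below background in both fractions, and its call was lost without odor replicate 1, 3 or 4 (limma adjusted p = 0.0998, 0.0939 and 0.107).

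Receptor feedback genes, 10 in number, gave 2 higher calls in odor pools and 0 in vehicle pools, and their median was 0.14 in odor pools and 0.16 in vehicle pools. The 2 were Adcy3, the adenylyl cyclase of odor transduction, at 0.30 ± 0.10 (SE, limma adjusted p = 0.0399), and Rtp2, a receptor transport protein, at 0.37 ± 0.13 (SE, limma adjusted p = 0.0449). In vehicle pools Adcy3 differed by 0.24 ± 0.10 (limma adjusted p = 0.108) and Rtp2 by 0.37 ± 0.13 (limma adjusted p = 0.0563). Both odor calls were lost when any 1 odor pool was left out, with limma adjusted p from 0.0608 to 0.157 for Adcy3 and from 0.0695 to 0.146 for Rtp2. They were also lost with the replicate block (limma adjusted p = 0.0669 for Adcy3 and 0.0507 for Rtp2), and receptor centring turned them to -0.163 and -0.092. Other settings added calls in vehicle pools. A filter on dim features called Adcy3 and Rtp2 there (limma adjusted p = 0.0421 and 0.032), as did other eBayes priors (0.0112 and 0.0203). Tested-feature centring called 7 of the 10 higher in odor and 6 in vehicle pools.

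The remaining list held 9 other factors in receptor expression, transcription factors and chromatin proteins, and gave 1 lower call in odor pools and 0 in vehicle pools, with medians of -0.11 in odor pools and -0.03 in vehicle pools. Nfia, a nuclear factor I protein, averaged 11.83 in odor titled GFP− and 12.39 in odor titled GFP+ arrays, a difference of -0.56 ± 0.18 (SE, limma adjusted p = 0.0358). That call was lost without odor replicate 1 (-0.36, limma adjusted p = 0.142), without odor replicate 2 (0.0682), without odor replicate 4 (0.0701) and without vehicle replicate 1 (0.0507). It was also lost with tested-feature centring (-0.26, limma adjusted p = 0.223) and with receptor centring (-1.02, limma adjusted p = 0.0514). With genes below background in a fraction set to their bound, and to 0 where both fractions were below it, the median difference was 0 over all features. On that footing it was 0 for the LIM adaptor, CoREST and heterochromatin lists in odor pools, 0.05 for the feedback list and -0.11 for the other factors, and it was 0 for the cycling and macrophage lists and -3.66 for the neutrophil list. Ssbp2, Hdac2, Rcor1, Lmnb1 and Adcy3 were named after their values were seen, to account for every call of these lists.

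**Figure D5:**
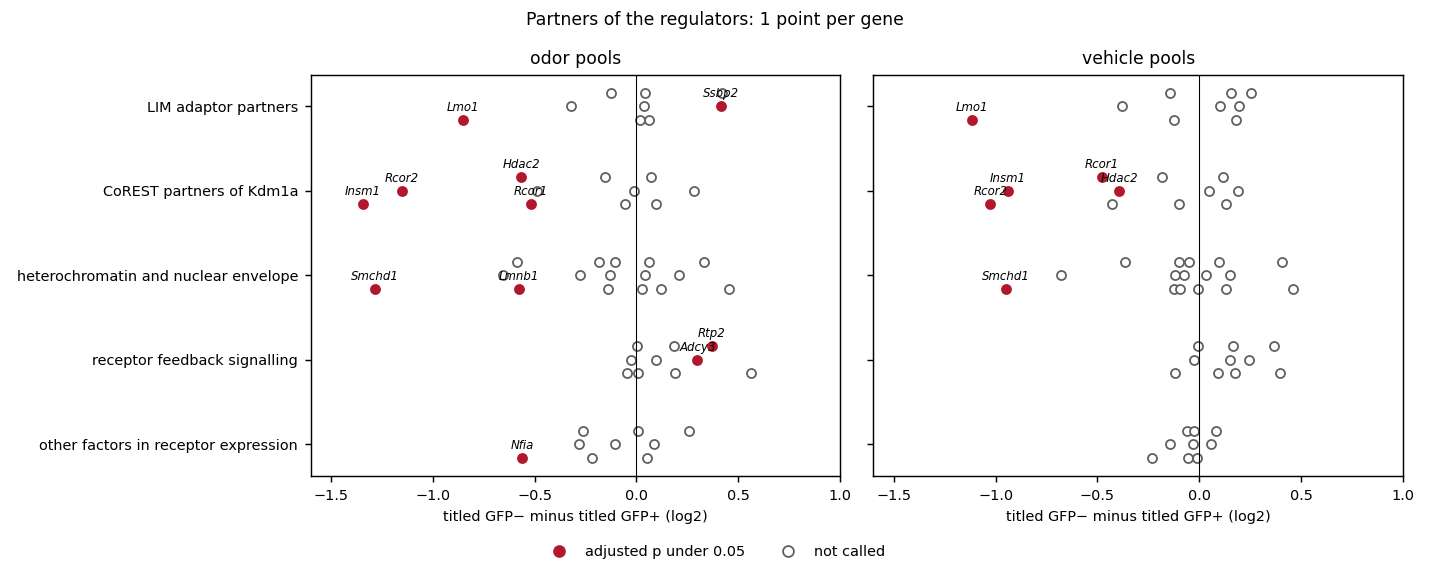
Difference in log2 signal, titled GFP− minus titled GFP+ (horizontal axis), of the genes of 5 partner lists in odor and vehicle pools, with 1 point per gene. Named red points had a limma adjusted p under 0.05. Among them Lmo1, Rcor2, Insm1 and Lmnb1 lay below background in both fractions, as did Smchd1 in odor pools. The CoREST list has 4 red points left of 0 in each treatment.

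Across the 16 arrays the genes whose log2 signals were most like those of Lbr were Irak3 (Pearson r = 0.983), Atad2 (0.981) and Rdh12 (0.978). The 16 points share a fraction contrast and, in pairs, the same animals, so these values describe likeness only. For Atf5 they were Snx32 (0.936), Trnp1 (0.929) and Olfr801 (0.926), and for Lhx2 Macroh2a2 (0.908), Olfr65 (0.873) and App (0.863). Among the EBF genes, Ebf3 lay nearest to Tmem47 (0.932), Ebf1 to Lingo1 (0.894), Ebf4 to Clasrp (0.879) and Ebf2 to Kcnj2 (0.861). Ldb1 lay nearest to Tnni3 (0.887), Emx2 to Glmn (0.852) and Kdm1a to Dlx4 (0.806). Among the regulators themselves, Ebf2 and Ebf3 had r = 0.718, Ldb1 and Ebf4 0.717 and Lhx2 and Ebf3 0.697, while Lbr and Atf5 had -0.823.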

How the data were processed

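The authors deposited 1 value per transcript cluster for each array, made with Affymetrix Expression Console per the submitters' processing notes, and these deposited values, from 1.77 to 19.3, were used as log2 signals. Background correction, normalization, summarization and genome build are not given in the sources used here. Of 28846 entries per array, 19572 carried 1 gene symbol and were tested. All of them matched a RefSeq gene table by Entrez identifier. The number of arrays, 4 per group, limits the precision.

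Group means were fitted with limma (limma 3.58.1, R 4.3.3), which gave 5 comparisons, with two-sided moderated tests and Benjamini-Hochberg adjustment over all 19572 features at 0.05. Fraction differences are titled GFP− minus titled GFP+. On simulated data for the vehicle fraction comparison over 19572 features, the fit recovered 11.9% of features changed by 0.5 on the log2 scale, 61.2% of those changed by 1 and 97% of those changed by 2. That simulation changed 67, 67 and 66 features by these amounts, far fewer than the 3302 called in vehicle pools. Its adjusted threshold was therefore stricter than in the data. Background was the 95th percentile of 5222 negative controls per array. Some of these controls were bright, up to 18.95, so the highest of 23 background probe sets (7.45 to 8.53 per array) is given beside it where it matters.

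The regulators and lists were chosen with earlier results of these data known. All 10 regulators are named. From each list the genes named were those called in vehicle pools, up to 2 per direction with the smallest p, and otherwise the 1 with the smallest p. Markers of that rule are printed only where a result turns on them. S100a5 is always named, as are the genes most like each regulator over the 16 arrays, up to 3 each. Some listed genes were not analysed here.

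Replicate numbers pair the fractions, since the mice of a pool supplied both its fractions. Deviations from the group means of same-numbered arrays correlated at 0.096 to 0.337, against at most 0.088 for other numbers, and 8 of 8 titled GFP− arrays matched their own number best. No mouse was in more than 1 pool, so the spread between replicates holds animal differences. Alternatives were 4 other scalings, a filter on dim features, other eBayes priors, the pool as a block and leaving out pools.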

Additional observations from a re-analysis of the deposited data

Results flagged for a closer look

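In 5 of the 40 sets of 4 arrays, 1 array lay farther from the other 3 than the 95% critical value of Dixon's test (0.83 for 4 arrays) allows. Chance gives about 1 such set in 20. The 5 were Lhx2 in odor titled GFP+ arrays at 15.65 (gap over range 0.837), Ebf1 in odor titled GFP− arrays at 16.68 (0.892), Ebf1 in vehicle titled GFP+ arrays at 16.61 (0.956), Emx2 in vehicle titled GFP− arrays at 13.56 (0.840) and Atf5 in odor titled GFP+ arrays at 15.56 (0.947). In each the outlying array was the lowest and came from a pool numbered 1. Over the 36 sets of the 9 regulators other than Lbr, pools numbered 1 gave the lowest array in 22, those numbered 2 in 1, those numbered 3 in 8 and those numbered 4 in 5. Those 22 were 6 in odor and 7 in vehicle titled GFP+ arrays, and 7 in odor and 2 in vehicle titled GFP− arrays. In the fraction titled GFP+ the arrays of pools numbered 1 also had the highest neutrophil means of their treatment, 14.54 in odor and 14.85 in vehicle pools. In the fraction titled GFP− the neutrophil markers lay below background. The part of these cells in the low values was not tested.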

How the results depend on the processing

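Lbr was called lower in both treatments under every alternative run, with leave-one-out ranges of -2.03 to -1.42 in odor pools and -1.87 to -1.28 in vehicle pools and adjusted p up to 0.0113 and 0.0181. With the replicate block, Lbr kept its differences of -1.77 and -1.67 (limma adjusted p = 0.0052 and 0.0079), and the block called 4948 features in odor and 3708 in vehicle pools. Among the named genes run under the block it ended the odor calls of Rtp2 and Adcy3 and added one for Col1a1, a collagen below background, in vehicle pools (0.63, adjusted p = 0.0443). Centring on the tested-feature median called 4 regulators in odor and 9 in vehicle pools, and 11192 features (9658 higher, 1534 lower) and 13985 (12456 higher, 1529 lower). It turned Lhx2 to 0.35 and Ldb1 to 0.36 in vehicle pools (adjusted p = 0.0268 and 0.0290), and Hdac2 there to 0.0098. Receptor centring called 2783 features (343 higher, 2440 lower) in odor and 2171 (342 higher, 1829 lower) in vehicle pools, and turned Rtp2 to -0.092, Adcy3 to -0.163, Ssbp2 to -0.049 and Ano2, a chloride channel of mature OSNs, to -0.055 in odor pools. Centring on OSN markers gave 751 higher and 2904 lower in odor pools and 498 higher and 2702 lower in vehicle pools, and quantile normalization 2930 higher and 1956 lower and 2643 higher and 1863 lower. As deposited these were 2385 higher and 1953 lower in odor pools and 1380 higher and 1922 lower in vehicle pools. The dim filter, which tested 6767 features, called 2197 and 1261. Leaving out 1 pool gave 2689 to 4255 features in odor and 2138 to 3867 in vehicle pools, lowest without odor replicate 1 and without vehicle replicate 1. With both pools numbered 1 left out there were 2817 in odor pools, and 1 between odor and vehicle in the fraction titled GFP−. S100a5 missed the threshold in vehicle pools with receptor centring (0.72, adjusted p = 0.107). Of 800 values of the regulators under alternatives, 789 kept their call, 118 of them with an uncalled sign that differed. These values include the interaction and the odor comparisons, in which no regulator was called. All values that changed were fraction differences under tested-feature centring, where 9 became called with the same sign and 2 with the reverse sign. The causes of these shifts were not tested.

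The direction of every fraction difference depends on titles that the characteristics contradict. A signal on arrays is no count of molecules, and most genes below background, the B cell and basal markers among them, cannot be ranked. With 4 pools per treatment, small changes can go uncalled. The simulation recovered 11.9% of changes of 0.5 on the log2 scale, but its adjusted threshold was stricter than in the data. It thus gives no rate of missed changes for these genes. Protein levels, translation and single cells were not measured.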
